A study of Mus musculus with 8 samples.

Results

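The genes described here are the metallothioneins Mt1, Mt2 and Mt3, the zinc-sensing transcription factor Mtf1 and the zinc transporters Slc30a1 and Slc39a14, which are 6 of the 24421 genes in the expression table. They were picked by gene symbol, and each of the 6 symbols matched 1 row. The choice was made with results of these data already known, the rise of Mt3 in the knockout among them. Mt3 is therefore described without a test, and the adjusted p-values of the other 5 show where each gene stood in a fit of all genes and are not independent evidence.

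Metallothioneins are small, cysteine-rich proteins that bind zinc and copper and buffer the free metal in the cell. When free zinc rises, MTF-1, the product of Mtf1, enters the nucleus and binds short metal response elements in the promoters of Mt1, Mt2 and Slc30a1. ZnT1, the product of Slc30a1, carries zinc out of the cell, whereas ZIP14, the product of Slc39a14, brings in zinc, manganese and iron that is not bound to transferrin. Inflamed macrophages are known to shift zinc between these pools, and Mt3 is best known from the brain.

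RNA with poly-A tails was sequenced from macrophages grown out of mouse bone marrow (BMMs). The cells came from wild-type control mice or from Rbpj f/f;LysMCre mice, in which Cre made from the LysM locus deletes Rbpj, the gene of the Notch pathway's DNA-binding factor, in myeloid cells. Cells of each genotype were taken before TNF (day 0) and following a 2-day exposure to it (40 ng/ml), which makes 4 groups of 2 libraries. The alleles of the controls, the strain and the age of the mice are not given in the sources used here. A 2-day culture lacking TNF is not among the groups, so the cytokine and the time in culture cannot be told apart, and "with TNF" below means both. The series states 2 independent experiments, but whether a group's libraries come from different mice is not given, so the p-values rest on the spread between these samples alone, which may be technical. Values are CPM, reads scaled to the size of the library, and the libraries held 9855859 to 35653203 reads counted in genes. The deleted gene, Rbpj, had 178 to 226 CPM in the 4 wild-type libraries and 21.4 to 38.9 CPM in the 4 knockout libraries, with no overlap. Where groups of 2 libraries are said below to overlap or not, this is a description, and its share over all genes was not counted. All 8 macrophage markers searched for were detected, at a summed 4905 to 9185 CPM.

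Mt1, Mt2 and Mt3 lie side by side on GRCm38 chromosome 8, on the plus strand, with Mt4 upstream of them, and the 4 genes span 43131 bases. All are protein coding. Mt4 (chromosome 8, 94137197 to 94139031) had 0 reads in all 8 libraries, and the largest of the 8 limits that a count of 0 allows is 0.304 CPM. Mt3 (ENSMUSG00000031760.9) runs from 94152607 to 94154146, Mt2 (ENSMUSG00000031762.7) from 94172664 to 94173568 and Mt1 (ENSMUSG00000031765.8) from 94179082 to 94180327. Mtf1 (ENSMUSG00000028890.13) lies on chromosome 4 (124802104 to 124849800, plus strand), Slc30a1 (ENSMUSG00000037434.7) on chromosome 1 (191906767 to 191913247, plus strand) and Slc39a14 (ENSMUSG00000022094.15) on chromosome 14 (70303469 to 70351425, minus strand). An antisense gene overlaps Mt2 and another overlaps Slc30a1, and a gene on the opposite strand and a 5S ribosomal RNA gene overlap Mtf1. No source used here says that strand was used in counting, so reads of these partners cannot be told apart. The longest identical stretch between transcripts of any pair of Mt1, Mt2 and Mt3 was 20 to 27 bases.

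The promoters of the 3 expressed metallothioneins and of Slc30a1 are shown because each carries a match to the metal response element, through which MTF-1 is known to act. They are taken from RefSeq on GRCm38.p6 and hold 250 bases before and 50 after the annotated start, 5′ to 3′ on the gene's strand. Capitals mark matches on either strand to the core of the element, searched as TGCACNC or TGCGCNC. A match is a description and not a shown site.
Mt1 (chr8:94178839-94179138): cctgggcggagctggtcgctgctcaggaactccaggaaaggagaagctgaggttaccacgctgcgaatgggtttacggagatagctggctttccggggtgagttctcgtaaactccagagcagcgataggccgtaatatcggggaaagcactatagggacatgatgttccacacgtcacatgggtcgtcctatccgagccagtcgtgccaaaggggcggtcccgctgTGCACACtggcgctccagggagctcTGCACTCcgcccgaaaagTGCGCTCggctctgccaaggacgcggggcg
Mt2 (chr8:94172368-94172667): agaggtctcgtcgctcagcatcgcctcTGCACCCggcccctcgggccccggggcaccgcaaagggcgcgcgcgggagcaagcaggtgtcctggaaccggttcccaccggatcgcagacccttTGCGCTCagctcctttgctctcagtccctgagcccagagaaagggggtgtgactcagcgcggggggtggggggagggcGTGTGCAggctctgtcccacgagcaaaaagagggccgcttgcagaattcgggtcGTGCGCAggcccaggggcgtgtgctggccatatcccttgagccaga
Mt3 (chr8:94152357-94152656): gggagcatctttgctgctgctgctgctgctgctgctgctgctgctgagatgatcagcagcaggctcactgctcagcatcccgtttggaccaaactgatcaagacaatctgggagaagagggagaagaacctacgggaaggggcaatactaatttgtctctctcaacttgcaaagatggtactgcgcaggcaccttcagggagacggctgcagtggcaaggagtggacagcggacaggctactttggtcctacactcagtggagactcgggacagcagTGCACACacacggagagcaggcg
Slc30a1 (chr1:191906531-191906830): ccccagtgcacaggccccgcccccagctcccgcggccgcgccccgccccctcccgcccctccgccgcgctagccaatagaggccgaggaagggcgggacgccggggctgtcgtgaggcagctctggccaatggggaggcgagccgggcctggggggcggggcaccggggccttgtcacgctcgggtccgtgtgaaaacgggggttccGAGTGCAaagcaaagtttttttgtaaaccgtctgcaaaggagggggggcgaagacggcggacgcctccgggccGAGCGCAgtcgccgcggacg
Mt2 held 4 matches, Mt1 held 3, Slc30a1 held 2 and Mt3 held 1, the last at 27 bases after the start. Each window hangs on the annotated start, which was not checked, and matches outside it were not counted. The counts therefore do not rank the genes, Mt1 below Mt2 included. Of 32851 RefSeq promoters of this length, 25.7% held at least 1 match, 7.11% at least 2, 1.97% at least 3 and 0.517% at least 4. The Mtf1 promoter held 0 matches. TGGGAA, the core letters bound by RBP-J, was found on either strand once in the Mt2 promoter, starting 151 bases before the start, and in none of the Mt1, Mt3, Mtf1 and Slc30a1 promoters. That motif was present in 25.6% of all promoters of this length. No match of either motif overlapped another.

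Mt1 and Mt2, the metallothioneins made by most cells, were higher with TNF than at day 0 in each genotype and each replicate, and lower in the knockout than in wild type at each time. Wild-type Mt1 was 148 CPM in replicate 1 and 27.7 in replicate 2 at day 0, and 357 and 98.5 CPM with TNF. Knockout Mt1 was 102 and 12.4 CPM before TNF, then 176 and 53.5 CPM with it. The 2 libraries of a group lay so far apart that the groups overlapped in all 4 comparisons, although within a replicate TNF was always the higher. The ratio of TNF to day 0 was 2.41 and 3.55 in wild type and 1.73 and 4.30 in the knockout.

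Mt2 was the lower of the pair in CPM and had the larger ratios of TNF to day 0. Wild-type Mt2 was 24.1 and 1.41 CPM before TNF, then 130 and 39.4 CPM with it. Knockout Mt2 was 7.90 and 0.622 CPM before TNF, then 35.3 and 4.06 CPM with it. Both wild-type libraries with TNF were above the other 6 libraries, and in the knockout day 0 and TNF overlapped. The ratio of TNF to day 0 was 5.38 and 27.9 in wild type and 4.47 and 6.53 in the knockout. The ratio of Mt1 to Mt2 CPM was lower with TNF in each replicate of each genotype, from 6.13 and 19.7 to 2.75 and 2.50 in wild type and from 12.9 and 20.0 to 4.99 and 13.2 in the knockout, described here without a test.

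**Figure D1:**
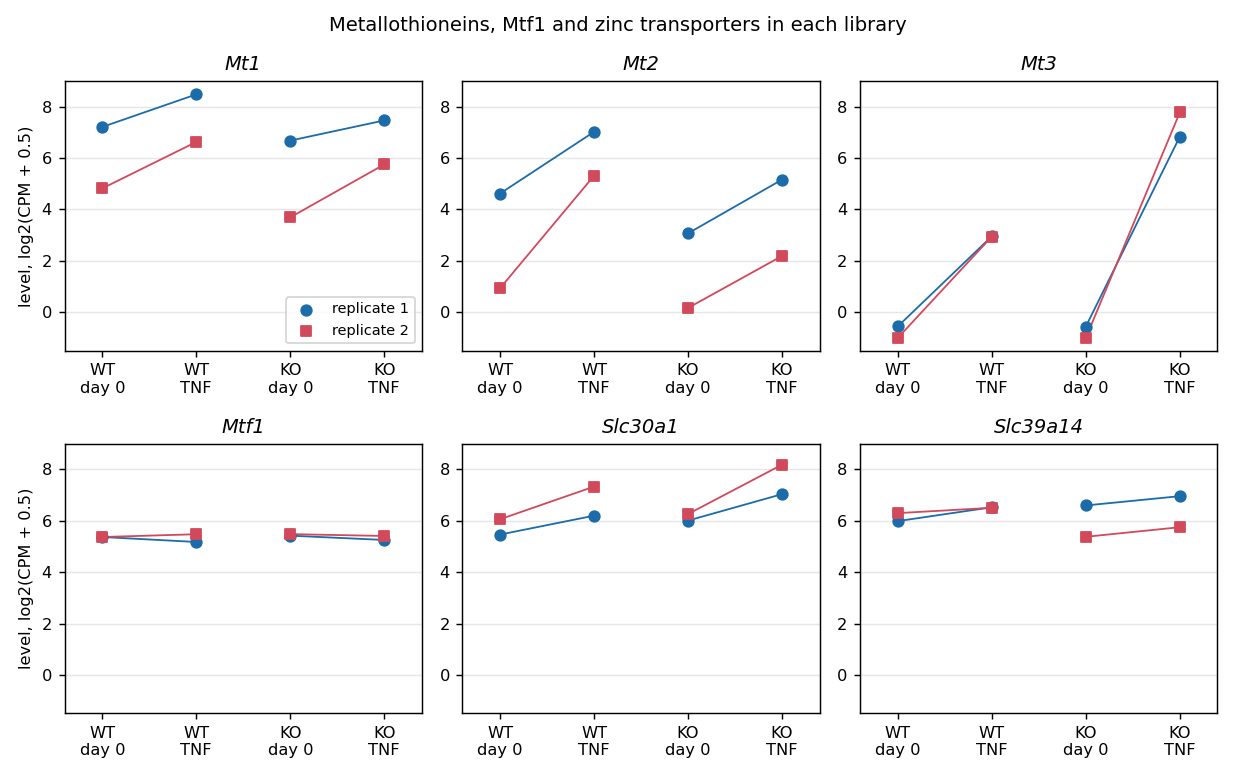
Level of each of the 6 genes in every library, as log2(CPM + 0.5) on the y axis, in the 4 groups on the x axis (WT wild type, KO Rbpj knockout). Circles are replicate 1 and squares replicate 2, and lines join day 0 and TNF of one replicate number. Mt1 and Mt2 lie apart by replicate and climb within each, Mt3 starts near the bottom and ends at 114 and 219 CPM in the knockout with TNF, and Mtf1 stays between 35.6 and 44.2 CPM.

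The replicate number went with a large part of the spread of Mt1 and Mt2. Replicate 1 exceeded replicate 2 by 3.30 to 8.21 times for Mt1 and 3.29 to 17.1 times for Mt2 over the 4 groups. When the replicate number was fitted as a block, replicate 2 minus replicate 1 was -2.24 on the log2 scale for Mt1 and -2.82 for Mt2, and 2.06% and 0.828% of the genes tested had a difference at least as large. The 6 stromal markers searched for, among them Col1a1, all had reads and moved with the replicate number as well, at a summed 116 to 178 CPM in replicate 1 and 3.91 to 32.1 CPM in replicate 2. Macrophage, neutrophil and dendritic cell markers lay the other way, higher in replicate 2 in all 4 groups, as did the low sums of B cell, T and NK cell, and mast cell and basophil markers. The macrophage sums in replicates 1 and 2 were 5507 and 6951 CPM for untreated wild type and 7053 and 7683 with TNF. For the knockout they were 5438 and 9185 CPM untreated and 4905 and 6197 with TNF. Of the 12 neutrophil markers 11 were in the table, none at 0 in all libraries, and their sums were 183 and 896 CPM (replicates 1 and 2) for untreated wild type, 116 and 219 for wild type with TNF, 288 and 1063 for the untreated knockout and 60.9 and 65.4 for the knockout with TNF, so lower with TNF in each replicate. The 5 dendritic cell markers summed, in the same order, to 11.9 and 18.7, 57.6 and 564, 17.3 and 91.8, and 98.7 and 392 CPM, so higher with TNF in each replicate. The part of these markers in the levels of Mt1 and Mt2 was not tested. In bulk RNA, more cells of a type and more RNA per cell cannot be told apart.

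In log2(CPM + 0.5), where changes of low genes come out too small, Mt1 changed with TNF by 1.54 in wild type and 1.42 in the knockout, and Mt2 by 3.39 and 2.06. Without the block the standard errors were 1.28 for Mt1 and 1.63 for Mt2, and 0 of the 5 members tested passed an adjusted p of 0.05 in either genotype (limma). At an unadjusted p under 0.05 it was 0 of 5 in wild type and 1 in the knockout, Slc30a1, and edgeR and DESeq2 without the block called 0 as well. That unadjusted threshold was met by 1478 of the 12194 genes tested in wild type and 2373 in the knockout. Among all genes, edgeR called 60 in wild type and 497 in the knockout, and DESeq2 874 and 1701. By limma without the block, 1.18% of all genes tested passed in wild type (0.812% higher and 0.369% lower with TNF) and 5.1% in the knockout (3.09% higher and 2.01% lower). With the block, Mt1 and Mt2 rose in both genotypes: 2 of the 5 members passed in wild type, where 10.3% of all genes did (5.54% higher and 4.71% lower), and 3 in the knockout, where 25.9% did (12.2% higher and 13.7% lower), the last being Slc30a1. For Mt1 the standard error was then 0.31 (limma adjusted p = 0.0303 in wild type and 0.0196 in the knockout), and for Mt2 it was 0.44 (limma adjusted p = 0.00758 and 0.0181). By edgeR with the block the Mt1 change in wild type did not pass (adjusted p = 0.0514).

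These blocked calls rested on few libraries. The Mt1 call in wild type ended on leaving out a library of day 0 (adjusted p = 0.0720 for wild-type replicate 1 and 0.187 for 2) and without wild-type TNF replicate 1 or 2 (0.0723 and 0.221). In the knockout it was lost without day 0 replicate 2 or TNF replicate 2 (0.116 and 0.121). The Mt2 call in wild type was lost without day 0 replicate 2 (0.0508), and in the knockout without any 1 of the 4 knockout libraries, day 0 replicates 1 and 2 (0.0797 and 0.112) or TNF replicates 1 and 2 (0.0717 and 0.0775).

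Between genotypes, the knockout-to-wild-type ratio of Mt1 was 0.691 and 0.448 at day 0 and 0.494 and 0.543 with TNF. For Mt2 it was 0.328 and 0.441 at day 0 and 0.272 and 0.103 with TNF, so that all 8 within-replicate ratios of this pair lay below 1. With TNF the 2 groups did not overlap for Mt2, and they did for Mt1. At day 0, 0 of 5 members passed with or without the block (limma; 2 at an unadjusted p under 0.05 with the block, Mt1 and Mt2, and 0 without it; 0 called by edgeR and DESeq2), and 0% of all genes tested passed without it and 0.0082% with it. The unadjusted threshold was met by 729 of the 12194 genes tested with the block and 164 without it. Without the block, DESeq2 called 24 of all genes and edgeR 0. With TNF, the Mt2 difference of -2.49 ± 0.44 (SE) passed once the block was in the model (limma adjusted p = 0.0274, against 0.718). It was the only 1 of the 5 members to do so, when 9.28% of all genes did (5.53% higher and 3.75% lower in the knockout). Without the block 0 of 5 passed (limma; 0 at an unadjusted p under 0.05, and 0 by edgeR and DESeq2), and 0.0082% of all genes. Unadjusted, 1372 of the 12194 genes tested were under 0.05 without the block, and of all genes edgeR called 0 and DESeq2 593. The Mt2 call with the block ended on leaving out wild-type TNF replicate 2 (adjusted p = 0.166), knockout day 0 replicate 1 (0.0527) or 2 (0.0525), and either knockout library with TNF (0.0540 and 0.159), and edgeR with the block gave an adjusted p of 0.0558. The Mt1 difference with TNF was -0.94 ± 0.31 (limma with the block, adjusted p = 0.109). Rbpj, the deleted gene, was lower by -2.60 at day 0 and -2.96 with TNF. By limma without the block it did not pass either (adjusted p = 0.238 and 0.0735). It passed with the block (0.0264 and 0.00339) and by DESeq2 without it (2.44e-25 and 1.66e-33). A missing limma call without the block therefore does not show equal levels between genotypes.

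Mt3 went the other way between genotypes and showed almost no spread by replicate in wild type with TNF. At day 0 it had 5 reads in replicate 1 and 0 in replicate 2 of each genotype, that is 0.182 and 0.179 CPM in the libraries with reads. The 0 reads allow up to 0.111 CPM in wild type and 0.133 CPM in the knockout. With TNF, Mt3 was 7.26 and 7.21 CPM in wild type and 114 and 219 CPM in the knockout. Both knockout libraries with TNF were far above both wild-type libraries with TNF, and these far above all 4 libraries at day 0.

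From the summed reads, 5 at day 0 and 429 with TNF, the wild-type ratio for Mt3 was 78.8 (95% counting interval 33.5 to 244). From 5 and 5284 reads the knockout ratio was 1852 (interval 793 to 5705). In replicate 1 alone, with 5 reads at day 0 in each genotype, the ratio was 39.9 in wild type and 637 in the knockout. The knockout value lies below the interval from the summed reads. For replicate 2 alone, set against a floor of 3 reads, Mt3 was at least 64.8-fold higher in wild type and at least 1647-fold higher in the knockout. With TNF the knockout exceeded wild type 15.7-fold in replicate 1 and 30.4-fold in replicate 2, and 25.3-fold over the summed reads (interval 22.9 to 28). Both replicate ratios lie outside that last interval, and in summed reads the deeper library of a group weighs more. All these intervals cover counting error only, and not the spread between replicates. On the log2(CPM + 0.5) scale the TNF change of Mt3 was 3.73 ± 0.39 (SE with the block) in wild type and 8.09 ± 0.39 in the knockout, and these values hang on the pseudocount (2.92 and 7.20 with a pseudocount of 1). Between replicates, Mt3 was lower in replicate 2 at day 0, where both are near the floor, and higher in replicate 2 of the knockout with TNF (a ratio of replicate 1 to 2 of 0.519).

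Osteoclast markers moved in the same libraries as Mt3. All 12 searched for had reads, and their summed level was 260 to 370 CPM in the 4 libraries at day 0, 5603 to 6849 CPM in wild type with TNF and 19400 and 47171 CPM in the knockout with TNF. Their part in the level of Mt3 was not tested. The 4 genes nearest to Mt3 in pattern, by the root mean square distance between centred log2(CPM + 0.5) values over the 8 libraries, were the unconventional myosin Myo1d (0.46), Rufy4 (0.46), the fusion receptor Dcstamp (0.49) and the sphingosine-1-phosphate transporter Spns2 (0.49). Mt1 and Mt2 lay 3.13 and 3.28 log2 units from Mt3 by this measure and 0.95 from each other. The nearest to Mt1 were the glucose transporter Slc2a1 (0.36), the secretory kinase Fam20c (0.41), the fatty acid desaturase Scd2 (0.43) and Phlda1 (0.48). The nearest to Mt2 were the adenylate kinase Ak4 (0.72), Foxp4 (0.92), Wnt6 (0.94) and Mt1. Wnt6 had only 0.267 to 1.11 CPM at day 0, where the pseudocount weighs on the distance.

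**Figure D2:**
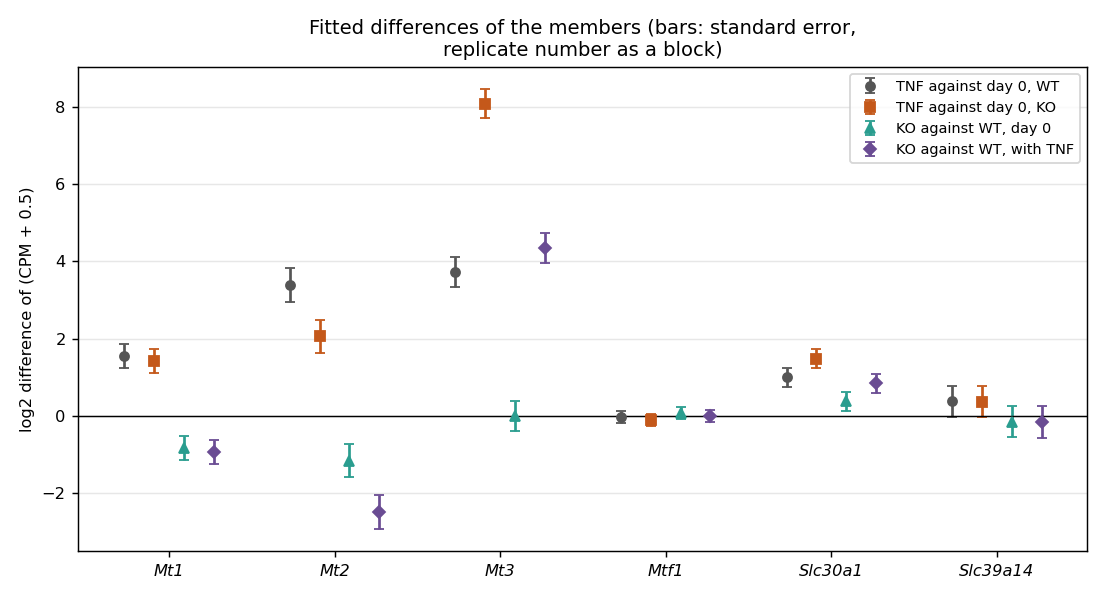
Fitted log2 differences of (CPM + 0.5) on the y axis for the 6 genes on the x axis, from limma with the replicate number as a block, in 4 comparisons (colours and symbols). Bars are standard errors. Mt1 and Mt2 have positive TNF changes (1.42 to 3.39) and negative knockout differences, Slc30a1 has positive values in all 4, and Mt3 has the value of 8.09 in the knockout.

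Mtf1, the metal sensor itself, hardly varied. Wild-type Mtf1 was 40.8 CPM in both libraries at day 0, and 35.6 and 44.0 CPM with TNF. Knockout Mtf1 was 42.3 and 44.2 CPM before TNF, then 37.6 and 42.0 CPM with it. Day 0 and TNF overlapped in wild type, and the genotypes overlapped with TNF. Day 0 and TNF did not overlap in the knockout, nor did the genotypes at day 0, although the differences were small. A lack of overlap between groups of 2 libraries thus does not by itself show a change. Its log2 difference was -0.04 ± 0.16 for TNF in wild type, -0.12 ± 0.16 for TNF in the knockout, 0.08 ± 0.16 for the knockout at day 0 and 0.01 ± 0.16 for the knockout with TNF (limma with the block, adjusted p from 0.603 to 0.999), and the sign of the first and the last turned with median-ratio scaling (0.07 and -0.04). The transcripts with the nearest pattern were the proteasome maturation protein Pomp, Btrc, Ncoa6 and Mettl6, at distances of 0.05 to 0.08.

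Slc30a1, the zinc exporter, was higher with TNF than at day 0, and higher in the knockout than in wild type, in each replicate. Wild-type Slc30a1 was 43.6 and 66.3 CPM before TNF, then 73.0 and 161 CPM with it. Knockout Slc30a1 was 63.9 and 76.4 CPM before TNF, then 131 and 291 CPM with it. The groups did not overlap between day 0 and TNF in either genotype, but overlapped between genotypes at each time. Replicate 2 was the higher in all 4 groups, the reverse of Mt1 and Mt2. The summed osteoclast markers were likewise higher in replicate 2 of the knockout with TNF (19400 and 47171 CPM), but in wild type with TNF they were higher in replicate 1 (6849 and 5603 CPM). The macrophage, neutrophil and dendritic cell markers given above were higher in replicate 2 in all 4 groups, as Slc30a1 was, so this trait is not particular to a list. The part of any of these lists in the level of Slc30a1 was not tested.

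The ratio of TNF to day 0 for Slc30a1 was 1.67 and 2.42 in wild type and 2.05 and 3.80 in the knockout. Its log2 change rose past the threshold in the knockout with the block (1.48 ± 0.25, limma adjusted p = 0.00856, and 0.177 without it), a call lost without knockout day 0 replicate 2 (0.0656) or knockout TNF replicate 2 (0.0584). In wild type the change was 1.003 ± 0.25 and did not pass (adjusted p = 0.0529 with the block). It passed when knockout day 0 replicate 1 or 2 or knockout TNF replicate 1 was left out (adjusted p = 0.0470, 0.0472 and 0.0488). The knockout-to-wild-type ratio was 1.46 and 1.15 at day 0 and 1.79 and 1.81 with TNF, a log2 difference of 0.85 ± 0.25 with TNF (adjusted p = 0.0830 with the block). Nearest in pattern were the adhesion protein Emb (0.17), the V-ATPase subunit Atp6v1e1 (0.20), the amino acid transporter Slc38a6 (0.22) and the phosphatase Ptpn12 (0.24).

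Slc39a14, the importer, changed little with TNF and differed in the knockout by replicate. Wild-type Slc39a14 was 62.9 and 78.2 CPM before TNF, then 91.7 and 90.4 CPM with it. Knockout Slc39a14 was 96.3 and 41.0 CPM before TNF, then 124 and 53.3 CPM with it. The wild-type groups did not overlap, while in the knockout replicate 1 was the higher at both times. The ratio of TNF to day 0 was 1.46 and 1.16 in wild type and 1.29 and 1.30 in the knockout. The ratio of knockout to wild type was above 1 in replicate 1 (1.53 at day 0 and 1.35 with TNF) and below 1 in replicate 2 (0.525 and 0.590). No comparison of Slc39a14 passed, and its TNF change was 0.37 ± 0.41 in each genotype (limma with the block, adjusted p = 0.595 in wild type and 0.539 in the knockout). Its nearest patterns were those of Yap1, Hilpda, Dnah17 and Lrrc59, at distances of 0.25 to 0.26. Yap1 had only 0.158 to 1.12 CPM, where the pseudocount weighs on the distance.

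The TNF responses of the genotypes were also set against each other. Of the 5 members tested 0 passed (limma with or without the block, edgeR and DESeq2, and 0 at an unadjusted p under 0.05 in each), as did 0% of all genes with limma. By limma, 689 of the 12194 genes tested were at an unadjusted p under 0.05 without the block and 2192 with it. DESeq2 called 78 of all genes and edgeR 0. The difference of responses, knockout minus wild type, was -0.12 ± 0.44 for Mt1, -1.34 ± 0.62 for Mt2, -0.08 ± 0.22 for Mtf1, 0.47 ± 0.35 for Slc30a1 and -0.01 ± 0.57 for Slc39a14 (log2, SE with the block, adjusted p from 0.325 to 0.997). For Mt3 it was 4.36 ± 0.55, given without a test.

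Per length of exon, the order of the members changed with TNF and genotype. Levels between genes are given here as CPM per kb of protein-coding exon in GENCODE M21, means of 2 libraries with their SD. For Mt1 the annotated exon covers the whole gene (1246 bases), so its level per kb is a low estimate. Exon lengths are the union over a gene's protein-coding transcripts, which can be longer than any single transcript. The levels of the other genes may thus be low as well, that of Mt3 (1066 of 1540 bases) among them. In wild type at day 0 the order was Mt1 (70.4 ± 68.1), Mt2 (21.7 ± 27.3), Slc39a14 (13.6 ± 2.07), Slc30a1 (10.5 ± 3.05), Mtf1 (5.12 ± 0.00113) and Mt3 (0.0855 ± 0.121). With TNF it was Mt1 (183 ± 147), Mt2 (144 ± 109), Slc30a1 (22.3 ± 11.8), Slc39a14 (17.5 ± 0.180), Mt3 (6.79 ± 0.0368) and Mtf1 (4.99 ± 0.744). The ranges of Mt1 and Mt2 overlapped at both times, as did those of Slc30a1 and Slc39a14, and so did those of Mt2 and Slc39a14 at day 0. Those of Mt3 and Mtf1 with TNF did not.

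In the knockout at day 0 the order was Mt1 (46.0 ± 50.9), Slc30a1 (13.4 ± 1.69), Slc39a14 (13.2 ± 7.51), Mt2 (7.24 ± 8.75), Mtf1 (5.42 ± 0.160) and Mt3 (0.0838 ± 0.119). With TNF the means were Mt3 (156 ± 70.1), Mt1 (92.2 ± 69.7), Slc30a1 (40.2 ± 21.5), Mt2 (33.5 ± 37.6), Slc39a14 (17.0 ± 9.59) and Mtf1 (4.99 ± 0.384). Mt3 exceeded Mt1 in replicate 2 (206 against 42.9 CPM per kb) and not in replicate 1 (107 against 142). Since the level of Mt1 is a low estimate and that of Mt3 may be one, the order of this pair is not settled. Mtf1 lay below each of the other 5 in both of these libraries. All other neighbours in the knockout orders overlapped, except Mtf1 and Mt3 at day 0, and Slc39a14 and Mtf1 with TNF.

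**Figure D3:**
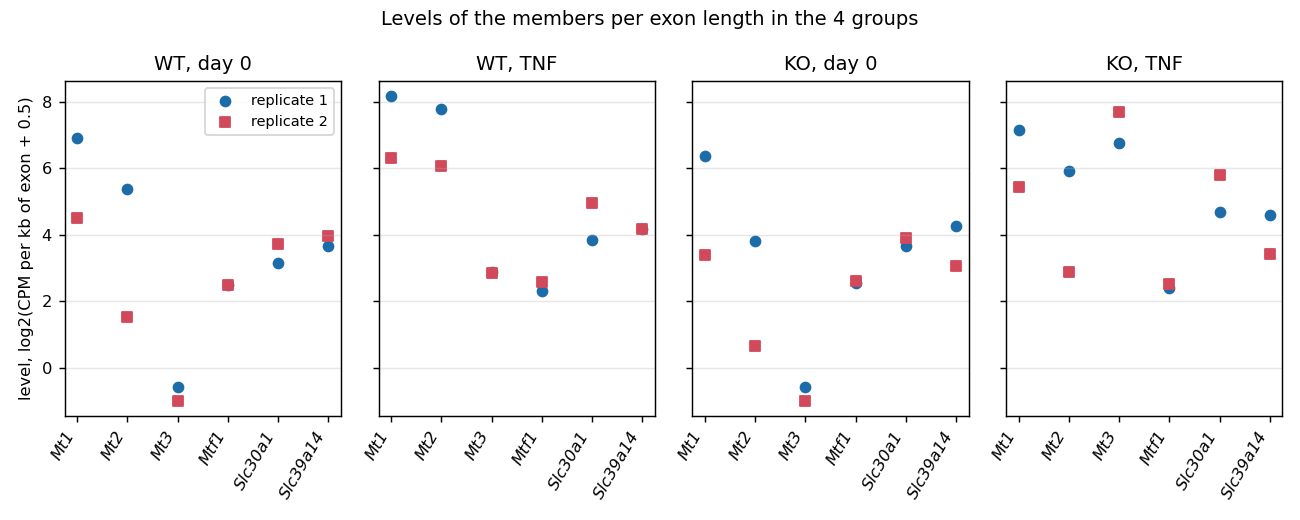
Level of the 6 genes per kb of exon, as log2(CPM per kb + 0.5) on the y axis, in 1 panel per group. Circles are replicate 1 and squares replicate 2. Mt1 and Mt2 stand highest in wild type with TNF, and Mt3 moves from the bottom at day 0 to 107 and 206 CPM per kb in the knockout with TNF.

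The rest of both transporter families was followed through lists that were also chosen with earlier results known. Of the other SLC30 genes, which carry zinc out of the cytosol, 5 of 9 passed the filter on low values, and of the other SLC39 genes, which carry it in, 10 of 13 did. Slc30a2, Slc30a3, Slc30a8, Slc30a10, Slc39a2, Slc39a5 and Slc39a12 did not, with 0 reads in all for Slc30a8. Of these, Slc39a12 had 42 reads at day 0 and 4 with TNF in wild type (CPM ratio 0.0875, 95% counting interval 0.0228 to 0.241) and 50 and 5 in the knockout (0.175, interval 0.0545 to 0.437). Slc39a4, the ZIP4 importer known from intestinal zinc uptake, had the largest TNF change in wild type among these 15 genes. Wild-type Slc39a4 was 4.30 and 1.60 CPM before TNF, then 151 and 155 CPM with it. Knockout Slc39a4 was 3.90 and 12.1 CPM before TNF, then 59.8 and 33.5 CPM with it. Both wild-type libraries with TNF were above both knockout libraries with TNF, and the day 0 groups overlapped.

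The Slc39a4 change with TNF was 5.59 ± 0.63 in wild type without the block (limma adjusted p = 0.0211, and 0.00445 with it) and 2.61 ± 0.63 in the knockout (0.0707, and 0.0242 with it). The wild-type call without the block ended on leaving out wild-type day 0 replicate 1 (adjusted p = 0.134) or 2 (0.158) or wild-type TNF replicate 1 or 2 (0.0706 and 0.133), and with the block without wild-type TNF replicate 2 (0.0529). The knockout call, made with the block, was lost without knockout day 0 replicate 1 (0.0728) or knockout TNF replicate 1 or 2 (0.107 and 0.0625). The knockout difference with TNF was -1.76 ± 0.60 (limma with the block, adjusted p = 0.121) and the difference of responses -2.99 ± 0.85 (adjusted p = 0.158), so neither passed. Without the block, DESeq2 called the TNF change in both genotypes (adjusted p = 2.56e-14 in wild type and 0.00298 in the knockout). By edgeR without the block only the wild-type change passed (adjusted p = 0.0481, and 0.0974 in the knockout).

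Slc39a13, the intracellular ZIP13 known from connective tissue, was 24.8 and 16.8 CPM in untreated wild type, 50.6 and 20.99 CPM with TNF, 29.9 and 17.7 CPM in the knockout before TNF, and 106 and 137 CPM with it. The 2 knockout libraries with TNF were above the other 6. It rose in the knockout by 2.36 ± 0.49 (limma adjusted p = 0.0473, and 0.00607 with the block), and with TNF it was higher in the knockout than in wild type with the block (1.87 ± 0.36, adjusted p = 0.0313, and 0.219 without it). The rise was lost without the block when knockout day 0 replicate 1 or 2 (adjusted p = 0.106 and 0.237), knockout TNF replicate 1 or 2 (0.119 and 0.246) or wild-type day 0 replicate 1 or 2 (0.0881 and 0.0887) was left out, and with it without knockout day 0 replicate 2 (0.0544). The genotype call was lost without wild-type TNF replicate 2 (0.217), knockout TNF replicate 2 (0.143), knockout day 0 replicate 1 or 2 (0.0576 and 0.0577) or wild-type day 0 replicate 1 or 2 (0.0525 and 0.0516).

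Slc39a8, the ZIP8 importer of zinc and manganese, fell with TNF in both genotypes with the block. It went from 32.8 and 29.7 to 10.2 and 3.43 CPM in wild type and from 34.5 and 17.2 to 11.1 and 3.85 CPM in the knockout, with no overlap in either. The log2 changes were -2.29 ± 0.34 and -1.81 ± 0.34 (limma with the block, adjusted p = 0.0122 and 0.0124). The wild-type call was lost without wild-type day 0 replicate 2 or TNF replicate 2 (adjusted p = 0.0552 and 0.107), and the knockout call without knockout day 0 replicate 1 or 2 (0.0680 and 0.0881) or TNF replicate 2 (0.0814).

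With TNF in wild type, 1 of the 10 SLC39 genes rose without the block, Slc39a4 (limma, with 1 called by edgeR and 2 by DESeq2). With the block 1 rose and 2 fell, Slc39a8 and Slc39a10 (-1.28 ± 0.22, limma adjusted p = 0.0183). Over all genes the shares called by limma were 1.18% without the block and 10.3% with it (5.54% higher, 4.71% lower). Without the block, edgeR called 60 and DESeq2 874 of the 12194 genes tested, and 1478 had an unadjusted limma p under 0.05. Of the 5 SLC30 genes, 0 passed without the block (limma; 1 at an unadjusted p under 0.05, and 0 by edgeR and DESeq2), and with it Slc30a5 of the early secretory pathway fell (-0.74 ± 0.16, adjusted p = 0.0381). The medians were -0.17 for SLC39 and 0.10 for SLC30 on the log2 scale, against -0.12 over all 12194 genes tested. The Slc39a10 call was lost without wild-type day 0 replicate 2 (adjusted p = 0.110) or TNF replicate 1 or 2 (0.0840 and 0.123). The Slc30a5 call was lost without those 3 libraries (0.240, 0.0991 and 0.242) or knockout day 0 replicate 1 or 2 (0.0786 and 0.0795).

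In the knockout, 1 of the 10 SLC39 genes rose without the block, Slc39a13 (limma, with 1 called by edgeR and 3 by DESeq2). With the block 4 rose and 1 fell, Slc39a8. Over all genes the shares called by limma were 5.1% without the block and 25.9% with it (12.2% higher, 13.7% lower). Without the block, edgeR called 497 and DESeq2 1701 of the 12194 genes tested, and 2373 had an unadjusted limma p under 0.05. The SLC39 genes that rose with the block were Slc39a13, Slc39a4, the plasma membrane importer Slc39a1 (1.31 ± 0.23, limma adjusted p = 0.00995) and Slc39a7, which releases zinc from the endoplasmic reticulum (0.87 ± 0.17, adjusted p = 0.0147). Of the 5 SLC30 genes, 0 passed without the block (limma; 1 at an unadjusted p under 0.05, 0 by edgeR and 1 by DESeq2), and Slc30a6, the partner of ZnT5, rose with it (0.97 ± 0.17, adjusted p = 0.00932). The medians were 0.14 for SLC39 and 0.28 for SLC30, against -0.10 over all genes tested. Leaving out knockout day 0 replicate 2 ended the calls of Slc39a1 (adjusted p = 0.0869), Slc39a7 (0.134) and Slc30a6 (0.0950). Without knockout TNF replicate 2 the calls of Slc39a7 (0.0929) and Slc30a6 (0.0663) were lost, and without knockout day 0 replicate 1 that of Slc30a6 (0.0536).

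Copper genes, whose metal is also bound by metallothioneins, were counted in the same way. Of the 10 searched for, 9 passed the filter, and 0 were called without the block in either genotype (limma; 1 in wild type and 2 in the knockout at an unadjusted p under 0.05, 0 by edgeR in each, and 1 and 0 by DESeq2). Across all 12194 genes tested, the unadjusted threshold was met by 1478 in wild type and 2373 in the knockout. There edgeR called 60 and 497 genes, and DESeq2 874 and 1701. With the block 2 of the 9 were called in wild type, where 10.3% of all genes were, and 3 of the 9 in the knockout, a share near the 25.9% of all genes. With the block, the copper transporter Slc31a2 rose by 1.15 ± 0.14 in wild type and 1.06 ± 0.14 in the knockout (limma adjusted p = 0.00660 and 0.00390). It went from 28.1 and 48.4 to 59.8 and 113 CPM and from 27.4 and 52.8 to 58.3 and 110.3 CPM. The chaperone Atox1 rose in wild type (1.01 ± 0.20, adjusted p = 0.0303), and in the knockout Sco1, which delivers copper to cytochrome oxidase, rose (1.19 ± 0.21, 0.0102) and the copper pump Atp7a fell (-0.99 ± 0.25, 0.0319). The Slc31a2 call in the knockout held whichever library was left out, and in wild type it was lost without day 0 replicate 2 or TNF replicate 2 (adjusted p = 0.0579 and 0.0594). The Atox1 call was lost without wild-type day 0 replicate 2 (0.191) or TNF replicate 1 or 2 (0.128 and 0.143), and the Sco1 call without knockout day 0 replicate 2 or TNF replicate 2 (0.0972 and 0.0691). The Atp7a call was lost without knockout day 0 replicate 1 or 2 (0.104 and 0.194), knockout TNF replicate 2 (0.131) or wild-type TNF replicate 1 or 2 (0.0557 and 0.0551).

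Between genotypes, 0 of the 24 other transporter and copper genes tested passed at day 0 with or without the block (limma; 1 and 0 at an unadjusted p under 0.05, and 0 by edgeR and DESeq2), when 0.0082% of all genes passed with the block and 0% without it. The unadjusted threshold was met by 729 of all 12194 genes tested with the block and 164 without it. With TNF, Slc39a13 was the 1 of these transporter and copper genes that passed, with the block, when 9.28% of all genes did. DESeq2 without the block also called 1 of them, against 593 of the 12194 genes tested. The SLC39 median with TNF was 0.37 and the SLC30 median 0.14, against 0.02 over all genes tested.

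**Figure D4:**
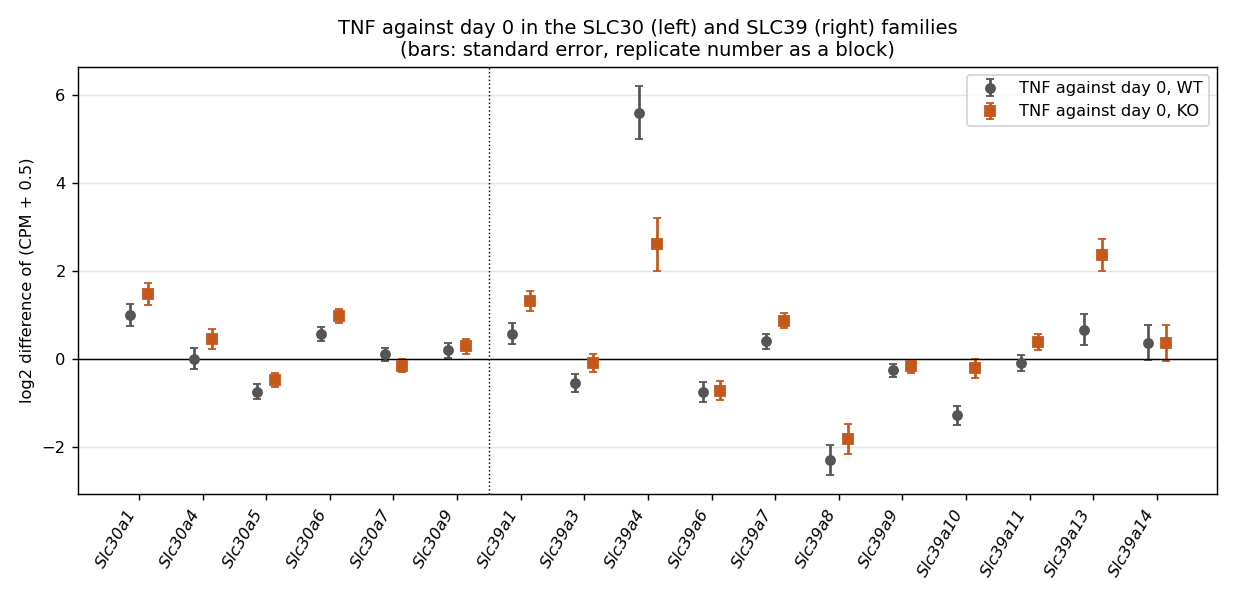
Log2 difference of (CPM + 0.5) between TNF and day 0 on the y axis for the 17 genes of the SLC30 family (left of the dotted line) and the SLC39 family (right) that passed the filter, Slc30a1 and Slc39a14 included, from limma with the replicate number as a block. Grey circles are wild type, orange squares the knockout, and bars standard errors. Slc39a4 stands highest in wild type (5.59) and Slc39a8 lowest in both genotypes (-2.29 and -1.81).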

How the data were processed

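RNA from 8 samples was analysed. The authors deposited a table of CPM, which sum to the same total in each library. The submitters' processing notes name build mm10, HISAT2, HTSeq, fastp and edgeR, with no versions, settings or annotation in the sources used here. Dividing each CPM by the worth of a single read returned integers (100% of values, to within 0.01), and these recovered reads served the count tests. Depth was 9855859 to 35653203 reads per library, which sets counting error alone.

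The members, gene lists and tests were chosen with earlier results of these data known. The test was limma (eBayes with trend, 2-sided) on log2(CPM + 0.5), with group as the only term, over all 8 libraries and the 12194 genes that reached 1 CPM in 2 or more of them (4 residual degrees of freedom), with Benjamini-Hochberg adjustment over all genes of each contrast and a threshold of 0.05. Errors of log2 values are limma's moderated standard errors.

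The replicate number was also fitted as a block (3 residual degrees of freedom) and was taken to pair the libraries, since the differences between replicates 2 and 1 correlated across genes between every pair of groups (6 pairs, r 0.577 to 0.805, genes not being independent replicates). Blocked values stand beside the others where they change a call. Alternatives were another pseudocount, no filter, median-ratio scaling, only the libraries of a contrast, leaving out each library, and edgeR and DESeq2 on the recovered reads.

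Named genes were the 6 members, Rbpj, up to 6 genes of each list with the largest change past the threshold with or without the block, Mt4, Slc39a8, and the 4 nearest to each member in pattern, with predicted genes skipped. Positions and exon lengths came from GENCODE M21 (GRCm38). RefSeq promoters were matched by symbol for 5 of the 6 members, all but Slc39a14. The 9 lists of markers of cell types were also searched. Besides those in the report, summed B cell markers ran from 0.729 to 9.91 CPM, T and NK cell markers from 0 to 1.95, mast cell and basophil markers from 0.140 to 5.15 and erythroid markers from 0 to 0.143. The fits were also run on simulated reads, for TNF in the knockout alone. The simulation gave all genes a common spread and each gene the same replicate shift in every group. Those settings differ from the data, and no result here rests on that run. Tools were limma 3.58.1, DESeq2 1.42.0 and edgeR 4.0.16 in R 4.3.3.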

Additional observations from a re-analysis of the deposited data

How the results depend on the processing

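Of the 5 members tested, 0 passed without the block in every contrast, also with each library left out. With the block 2 passed for TNF in wild type (1 by edgeR with the block), 3 for TNF in the knockout (3 by edgeR with the block) and 1 for the knockout with TNF, and with libraries left out the counts ran from 0 to 3, 0 to 3 and 0 to 1. Over all genes, TNF in wild type gave 144 calls, 78 without a filter, 1250 with the block, 60 by edgeR, 874 by DESeq2, 1163 by edgeR with the block, 28 on its 4 libraries alone and 0 to 1377 with a library left out. TNF in the knockout gave 622, 3162 with the block, 1701 by DESeq2, 3074 by edgeR with the block, 71 on its 4 libraries alone and 43 to 3069 with a library left out. The knockout at day 0 gave 0, 1 with the block by limma and by edgeR, 24 by DESeq2 and 0 to 2 with a library left out. The knockout with TNF gave 1, 13 without a filter, 1131 with the block, 2 with median-ratio scaling, 0 by edgeR, 593 by DESeq2, 811 by edgeR with the block, 0 on its 4 libraries alone and 0 to 1169 with a library left out. The difference of responses gave 0, 78 by DESeq2 and 0 to 358 with a library left out. Over all genes, the ranges with a library left out pool the fits with and without the block. Fewer samples were fitted where a library, a genotype or a time was left out, and otherwise the cause was not tested. The sign of Mtf1 turned for TNF in wild type (0.069 with median-ratio scaling, 0.10 by edgeR, 0.11 by DESeq2, 0.073 by edgeR with the block) and for the knockout with TNF (-0.037, -0.053, -0.057 and -0.041), and median-ratio scaling moved the median of all genes for TNF in wild type from -0.12 to -0.01. Leaving out 1 library, with or without the block, gave signs of both kinds on the log2 scale for Mt1 (TNF in the knockout -0.071 to 2.92, knockout at day 0 -2.32 to 0.66, difference of responses -1.61 to 1.38), Mt2 (knockout at day 0 -3.00 to 0.68, difference of responses -3.18 to 0.51) and the difference of responses of Slc30a1 (-0.10 to 1.05). It did so for Slc39a14 (TNF in wild type -0.19 to 0.94, TNF in the knockout -0.24 to 0.98, knockout at day 0 -0.77 to 0.45, knockout with TNF -0.77 to 0.44, difference -0.62 to 0.60) and Mtf1 (TNF in wild type -0.19 to 0.11, knockout at day 0 -0.0039 to 0.17, knockout with TNF -0.15 to 0.16, difference -0.23 to 0.074). These ranges pool the fits with and without the block. With the block alone, Mt1 for TNF in the knockout ran from 0.922 to 1.92 and kept its sign. A group left with 1 library is assumed to vary like the others. Depth limits Mt3 at day 0, where 5 reads or fewer stand behind each library.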
